A study of Arabidopsis thaliana with 42 samples.

Results

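Expansins and xyloglucan endotransglucosylase/hydrolases (XTHs) are secreted proteins that let the plant cell wall yield during growth. Messenger RNA of 39 listed genes, 16 alpha-expansins (EXPA) and 23 XTH genes, was followed in Arabidopsis thaliana seedlings through their rows in both deposited count tables, out of 33602 loci. The list names genes of the 2 families, but not all of them, and uses no measured value as a criterion. It was chosen with earlier results of these data known, so it is not independent of them. Expansins loosen the wall at acidic pH without cutting its polymers, by easing the contacts between cellulose and the matrix around it. XTH enzymes cut xyloglucan, the main hemicellulose that coats cellulose in these walls, and join the cut end to another chain, and a few of them can hydrolyse it instead. Both families are textbook markers of cell expansion, and in seedlings elongation follows a daily rhythm that the circadian clock and light set together.

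The study compared Col-0 wild type (WT) with the link1link2 mutant, in which LINK1 and LINK2 were read as LNK1 and LNK2, genes known to be controlled by light and the clock. All seedlings were grown on MS medium at 22 °C and were labelled as 9 days old, although the design text gives a longer growth time for the plants in continuous light, a difference that could not be resolved. WT and mutant were grown either in continuous white light (3 libraries of each genotype) or in long days (16 h of light, 8 h of dark). Long-day seedlings were harvested every 4 h at zeitgeber times (ZT, hours after lights on) ZT2, ZT6, ZT10, ZT14, ZT18 and ZT22, so that ZT18 and ZT22 fell in the dark, with 3 libraries for each genotype and time. The labels do not name the mutant alleles, and nothing in them ties replicates to separate cultures, so the p-values refer to the spread between libraries, which may be technical. Whole seedlings were used, so fewer cells of a type and less RNA per cell cannot be told apart.

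The 6 continuous-light libraries held 11448934 to 14911921 counts and the 36 long-day libraries 7259559 to 13576565. The mutant columns were assigned by elimination, since their name is a laboratory name that no label explains. In continuous light LNK2 stood at 140.7, 139.6 and 139.9 CPM (counts scaled to the library size) in WT and at 16.1, 17.4 and 17.1 CPM in the mutant, and LNK1 at 37.01, 44.3 and 38.5 CPM against 21.4, 25.3 and 25.6 CPM. At ZT2 the mean of LNK2 was 729.5 CPM in WT and 11.9 in the mutant and that of LNK1 251.8 and 74.1 CPM, while at ZT14 and ZT18, when WT was low, both genes were higher in the mutant (LNK2 at ZT14, 25.1 against 7.58 CPM), as was LNK1 at ZT22. In long days the share of chloroplast-encoded counts was over 2% in 4 of the 36 libraries (highest 3.31%). These were WT ZT10 replicate B, link1link2 ZT2 replicate C and link1link2 ZT22 replicates A and C. Counts without those libraries are given where they matter, and at ZT22 such fits kept only link1link2 replicate B in the mutant group. Seed storage genes summed to at most 15.4 CPM in any long-day library.

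Of the 39 genes, 36 passed the low-count filter in continuous light and 38 in long days. EXPA2 (AT5G05290), an expansin known from germinating seed, passed in neither, with 3 counts over all continuous-light libraries and 20 over all long-day libraries. XTH25 (AT5G57550) and XTH33 (AT1G10550), the latter an XTH with a membrane anchor, held 11 and 38 counts in continuous light and passed in long days only. Per kb of exon length, the highest level in WT in continuous light was that of EXPA1 (AT1G69530) at 158.2 ± 5.38 CPM per kb (SD, n = 3), an expansin known for its role in guard cells. It was followed by XTH7 at 120.5 ± 15.5, EXPA4 at 101.6 ± 5.62, XTH4 at 92.9 ± 3.71, EXPA6 at 82.0 ± 2.31 and XTH9 at 79.9 ± 3.40 CPM per kb. Of these neighbours in the order, XTH7 and EXPA4 overlapped within 1 SD of each other, as did EXPA4 and XTH4, and EXPA6 and XTH9.

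In WT under long days the times of the highest and lowest levels varied within both families, and a difference between the families was not tested. Time of day was called (edgeR quasi-likelihood test, Benjamini-Hochberg adjusted p under 0.05 over all genes) for 35 of 38 tested members in WT and 36 of 38 in the mutant, where 79.9% and 83.8% of all tested genes were called. Of the 21 XTH genes called in WT, 11 had their lowest mean at ZT14 and 9 their highest at ZT18, among them XTH4, XTH22, XTH23, XTH24 and XTH27. XTH6, XTH7, XTH31 and XTH32 were the 4 that were highest at ZT2, and XTH15, XTH17, XTH20 and XTH21 the 4 highest at ZT6. Of the 14 expansins called in WT, 9 were highest at ZT2 or ZT6, and 5 of the 14 were lowest at ZT18. Times of the highest and lowest means were not counted over all tested genes, so these counts are not read as traits of the families. Leaving out XTH25 and XTH33, which had few counts, the daily range in WT, as the highest over the lowest mean, reached 12.2-fold for XTH24, 11.0-fold for EXPA8, 10.3-fold for XTH22 and 9.11-fold for XTH20, and was 1.36-fold for EXPA4.

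Between the genotypes, 10 members were called higher in the mutant at some times of day and lower at others. A further 13 were called only higher, 5 only lower and 10 at no time. The shares of all tested genes in these classes were not counted, so the split is not read as a trait of the members. Of those called in both directions, some had a direction with a lone call. Among these were the higher calls of EXPA4 at ZT10, EXPA8 at ZT14 and EXPA10 at ZT2 and the lower call of XTH25 at ZT2. None of these calls held in every refit without a library, and XTH25 rests on few counts. The lone lower calls of EXPA4, EXPA5 and XTH6 at ZT22 held in each refit that left out 1 library, and other refits are given below. A genotype difference that depended on the time of day was called for 20 of 38 members (11 of 15 expansins and 9 of 23 XTH genes), against 41.9% of all tested genes. The mean of the 6 log2 ratios was called for 23 of 38 members, 17 higher and 6 lower in the mutant, against 33.9% of all tested genes (18.2% higher, 15.7% lower). The median of that mean log2 ratio was 0.08 over the members and 0.01 over all tested genes. Among the 34 members with time of day called in both genotypes, the time of the highest mean was the same in 19, later in the mutant in 7, earlier in 7 and 12 h apart in 1. Such shifts were not counted over all tested genes, so these counts are not read as a trait of the members either.

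The number of members called rose from the morning to the end of the night. At ZT2, 8 of 38 were called (6 higher, 2 lower), against 16.1% of all tested genes (8.53% higher, 7.58% lower). At ZT6, 9 were called higher and 2 lower, against 10.1% and 9.98%, and at ZT10 there were 11 (10 higher, 1 lower), against 22.1% (11.4% and 10.7%). The daytime differences were thus mostly increases in the mutant. At ZT14, 15 were called (11 higher, 4 lower), against 14.7% (7.72% and 6.98%), and at ZT18 also 15 (8 higher, 7 lower), against 20.2% (10.6% and 9.59%). At ZT22, 21 were called (10 higher, 11 lower), against 30.6% (16.6% and 14.1%), and there 3 of 15 expansins rose and 7 fell, and 7 of 23 XTH genes rose and 4 fell. The difference between the families was not tested. Median log2 fold changes over the 38 members at these times were -0.0008, 0.15, 0.16, 0.26, -0.02 and 0.03, and those over all tested genes lay between -0.004 and 0.02. Of the 81 calls over the 6 times, 52 remained called in each of the 36 refits that left out 1 library. Counts of calls at ZT10 went down to 7 without WT ZT10 replicate A or without link1link2 ZT10 replicate B. Summed leaf markers were lower in the mutant at ZT2 (25400 to 29140 CPM in WT, 20720 to 21490 in the mutant, 4 of 4 called lower), ZT18 (25140 to 27130 against 19060 to 20550, 3 lower and 1 higher) and ZT22 (19180 to 20590 against 13330 to 16910, 4 lower). They were higher at ZT6 (21590 to 23740 against 25080 to 26540, 2 higher and 1 lower) and ZT10 (18260 to 19080 against 22510 to 23390, 3 higher), and overlapped at ZT14. The summed dividing-cell markers were lower at ZT2, at 148.5 to 166.6 against 80.6 to 117.4 CPM with 3 of 4 lower. Their part in the results was not tested.

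**Figure D1:**
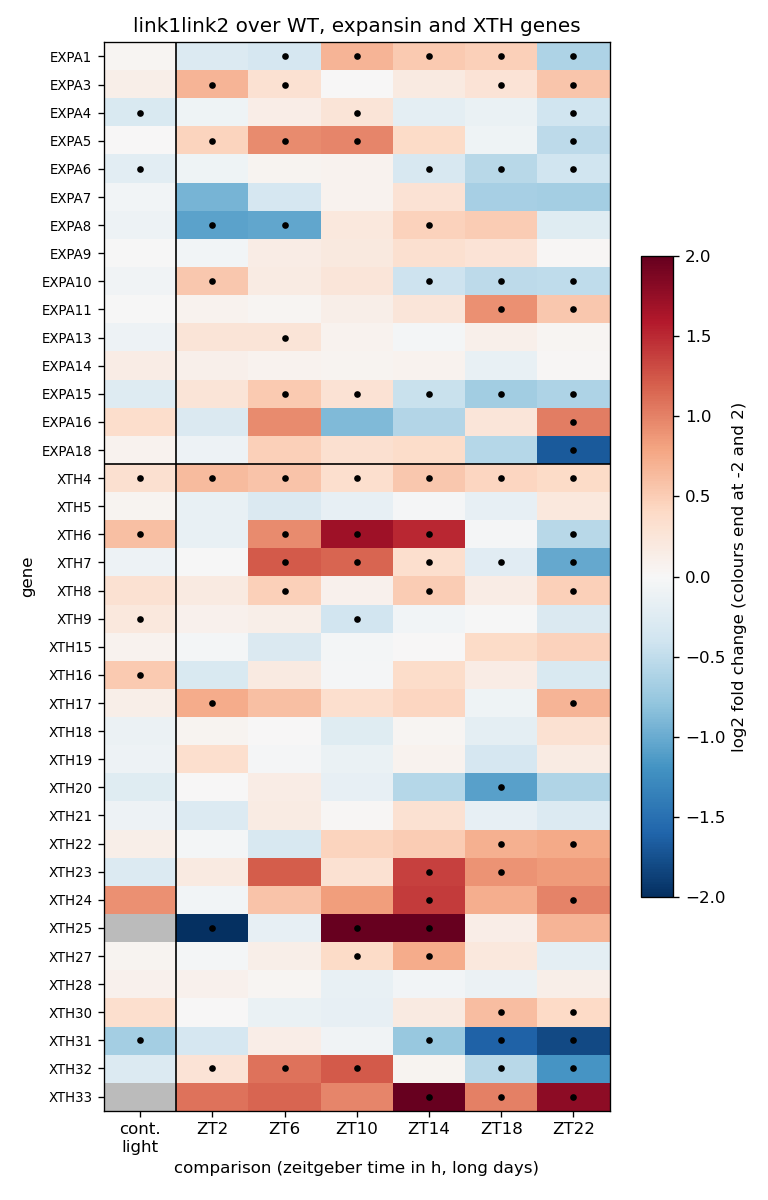
Log2 fold change of link1link2 over WT (colour, blue lower and red higher in the mutant, ending at -2 and 2) for the 38 members tested in long days (rows) in continuous light and at the 6 times (columns). Dots mark members called at an adjusted p under 0.05 and grey cells were not tested. XTH6, XTH7 and XTH32 are red at ZT6 and ZT10 and blue at ZT22, and XTH31 is blue from ZT14 to ZT22. The deep colours of XTH25 and XTH33 rest on few counts.

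Among the XTH genes that are high in the morning, XTH6 (AT5G65730), XTH7 (AT4G37800) and XTH32 (AT2G36870) shared one pattern: in WT they dropped from ZT2 to ZT10, and in the mutant they stood above WT at ZT6 and ZT10 and below it at ZT22. XTH6 and XTH7 are close relatives, with 74.4% protein identity, and XTH32 belongs to the small group of XTHs near the known xyloglucan hydrolases. The windows of 300 bases before their annotated starts are shown because the 3 genes moved together, and that of EXPA5 (AT3G29030) because it moved with them and holds a CCA1-binding site. They come from RefSeq (TAIR10.1) and lie at chr5:26298428-26298727 (plus strand) for XTH6, chr4:17777446-17777745 (minus) for XTH7, chr2:15474829-15475128 (minus) for XTH32 and chr3:11013452-11013751 (minus) for EXPA5. Capitals mark matches, on either strand, to 1 of 5 motifs searched: the G-box CACGTG, the evening element AAAATATCT, the CCA1-binding site AAAAATCT, the auxin response element TGTCTC and the brassinosteroid response element CGTGTG.
XTH6: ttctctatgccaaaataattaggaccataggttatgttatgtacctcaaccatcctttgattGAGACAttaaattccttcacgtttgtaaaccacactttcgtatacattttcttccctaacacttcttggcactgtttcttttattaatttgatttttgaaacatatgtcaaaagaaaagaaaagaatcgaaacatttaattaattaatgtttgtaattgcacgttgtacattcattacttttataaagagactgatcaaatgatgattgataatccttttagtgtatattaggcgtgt
XTH7: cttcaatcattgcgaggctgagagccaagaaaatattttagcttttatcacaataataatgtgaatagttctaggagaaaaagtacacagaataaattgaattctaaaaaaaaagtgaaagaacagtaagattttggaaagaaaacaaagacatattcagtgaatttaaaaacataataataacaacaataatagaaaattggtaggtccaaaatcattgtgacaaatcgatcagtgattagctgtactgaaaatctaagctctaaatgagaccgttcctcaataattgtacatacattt
XTH32: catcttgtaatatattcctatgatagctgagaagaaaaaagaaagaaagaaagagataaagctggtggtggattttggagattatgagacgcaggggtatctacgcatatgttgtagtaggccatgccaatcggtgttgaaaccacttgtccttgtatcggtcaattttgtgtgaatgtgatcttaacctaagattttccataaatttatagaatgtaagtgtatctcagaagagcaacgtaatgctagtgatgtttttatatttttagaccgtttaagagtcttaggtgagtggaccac
EXPA5: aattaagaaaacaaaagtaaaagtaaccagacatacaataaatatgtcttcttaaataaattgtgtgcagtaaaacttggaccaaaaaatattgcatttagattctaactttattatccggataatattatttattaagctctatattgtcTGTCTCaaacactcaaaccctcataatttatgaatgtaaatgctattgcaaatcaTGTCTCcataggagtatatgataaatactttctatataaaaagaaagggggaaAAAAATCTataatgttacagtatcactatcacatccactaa

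The XTH6 window held 1 auxin response element, at base -238 from the start, and those of XTH7 and XTH32 held none of the 5 motifs. In the EXPA5 window 2 auxin response elements lay upstream of the CCA1-binding site, which was at -41. Over the 39 members the auxin element was in 6 windows (EXPA5, EXPA6, EXPA7, EXPA10, XTH6 and XTH24), against 13% of 27443 promoters of the same length. The CCA1-binding site was in 2 (EXPA5 and XTH22, against 7.94%), the evening element in 1 (XTH9, against 2.79%) and the G-box in 1 (EXPA2, against 7.09%). The brassinosteroid element was in 6 (EXPA1, EXPA2, EXPA6, XTH8, XTH23 and XTH25, against 6.11%). A match describes the letters in the window only.

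At ZT6 the 3 WT libraries gave 131.2, 130.4 and 121.3 CPM for XTH7 and the 3 mutant libraries 286.5, 307.6 and 298.4 CPM. At ZT22 the order was the opposite, with 103.5, 111.5 and 110.0 CPM in WT and 51.97, 55.4 and 53.2 CPM in the mutant. The groups did not overlap at either time, and at ZT2 both genotypes stood between 277.2 and 303.2 CPM. The log2 fold change of XTH7 was 1.22 ± 0.07 (SE) at ZT6 (edgeR adjusted p = 8.61e-18), 1.16 ± 0.07 at ZT10 (3.09e-17), 0.33 ± 0.07 at ZT14 (0.000502) and -1.02 ± 0.07 at ZT22 (2.09e-14). A call at ZT18 (-0.22 ± 0.07, 0.0216) had overlapping groups and was lost in 4 of 36 refits, those without WT ZT18 replicate A or C or link1link2 ZT18 replicate B or C. The highest mean of XTH7 moved from ZT2 in WT to ZT6 in the mutant, and its daily range from 2.93-fold to 5.56-fold.

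XTH32 at ZT10 read 17.3, 15.7 and 18.1 CPM in WT and 37.6, 38.4 and 44.6 CPM in the mutant, while at ZT22 it read 12.6, 13.7 and 14.2 CPM against 4.86, 6.42 and 6.43 CPM. Every mutant library was above every WT library at ZT10 and below at ZT22. Its log2 fold changes were 1.08 ± 0.08 at ZT6 (edgeR adjusted p = 1.37e-13), 1.23 ± 0.10 at ZT10 (9.53e-14), -0.56 ± 0.13 at ZT18 (0.00102) and -1.17 ± 0.13 at ZT22 (2.13e-09). At ZT2 a smaller call (0.28 ± 0.07, 0.00708) was lost without WT ZT2 replicate A or link1link2 ZT2 replicate C. Both genotypes were highest at ZT2, and the daily range was 7.78-fold in WT and 20.2-fold in the mutant.

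For XTH6 the WT libraries at ZT10 gave 30.2, 36.4 and 27.5 CPM and the mutant libraries 102.1, 93.3 and 104.1 CPM. At ZT14, where WT was lowest, the values were 22.5, 22.9 and 26.6 CPM against 65.4, 68.2 and 70.1 CPM. The mutant was thus higher in every library late in the light, with log2 fold changes of 0.95 ± 0.10 at ZT6, 1.69 ± 0.11 at ZT10 (edgeR adjusted p = 2.91e-14) and 1.51 ± 0.12 at ZT14 (8.35e-12). At ZT22 it was lower, at 61.5, 60.7 and 60.7 CPM against 98.4, 77.1 and 92.5 CPM (-0.55 ± 0.10, adjusted p = 6.34e-05). The daily range of XTH6 was 4.25-fold in WT and 1.8-fold in the mutant, so that it became flatter while those of XTH7 and XTH32 became steeper.

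XTH31 (AT3G44990), a close relative of XTH32 and an enzyme with xyloglucan-hydrolysing activity, was lower in the mutant from ZT14 to ZT22. WT libraries at ZT22 held 23.8, 24.3 and 21.2 CPM and mutant libraries 8.68, 6.04 and 5.41 CPM. At ZT18 the values were 41.6, 46.8 and 46.98 CPM against 20.9, 10.14 and 14.1 CPM, so that the groups were apart at both dark times. The log2 fold changes were -0.76 ± 0.13 at ZT14 (edgeR adjusted p = 0.000116), -1.61 ± 0.17 at ZT18 (3.2e-08) and -1.80 ± 0.20 at ZT22 (7.45e-08), and at ZT6 and ZT10 the groups overlapped. Its daily range was 7.73-fold in WT and 21.0-fold in the mutant, both highest at ZT2.

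**Figure D2:**
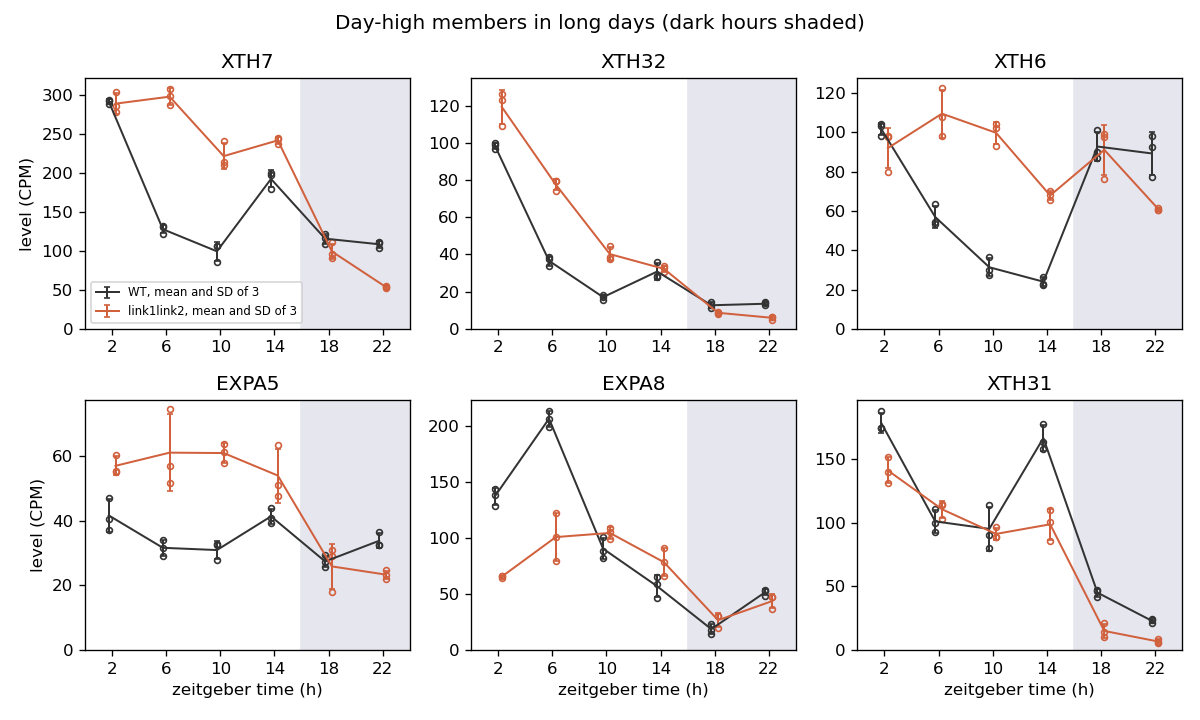
Level in CPM (vertical axes, from 0) against zeitgeber time in h for 6 members with their highest WT mean at ZT2 or ZT6. Circles mark libraries, and lines and bars the mean and SD of 3. WT is in black and link1link2 in orange, and dark hours are shaded. XTH7, XTH32, XTH6 and EXPA5 stay above WT at ZT6 and ZT10 in the mutant and end below it at ZT22, EXPA8 starts below WT at ZT2 and ZT6, and XTH31 is below WT at ZT18 and ZT22.

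Expansins with changed timing included EXPA5, known as a brassinosteroid-responsive expansin of growing leaves and stems. At ZT10 it stood at 27.7, 32.6 and 32.4 CPM in WT and 61.2, 63.8 and 57.7 CPM in the mutant, and at ZT22 at 32.6, 36.4 and 32.4 CPM against 22.1, 24.6 and 23.2 CPM. The mutant libraries were thus all above WT at ZT10 and all below at ZT22. Its log2 fold changes were 0.95 ± 0.14 at ZT6 (edgeR adjusted p = 5.02e-06), 0.98 ± 0.14 at ZT10 (1.93e-06) and -0.53 ± 0.14 at ZT22 (0.00566). The value at ZT22 was -0.45 without the 4 libraries rich in chloroplast counts, which left only link1link2 ZT22 replicate B in the mutant group. A call at ZT2 (0.45 ± 0.13) was lost without WT ZT2 replicate B or C or link1link2 ZT2 replicate B.

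EXPA8 (AT2G40610) lost its morning peak. In WT it measured 138.6, 128.8 and 144.0 CPM at ZT2 and 199.3, 213.3 and 206.2 CPM at ZT6. Mutant libraries held 64.1, 66.1 and 65.98 CPM at ZT2 and 79.1, 100.6 and 122.5 CPM at ZT6, below all WT libraries at both times. The log2 fold changes were -1.07 ± 0.15 at ZT2 (edgeR adjusted p = 1.41e-05) and -1.03 ± 0.15 at ZT6 (7.32e-06). At ZT14 the mutant was higher (0.47 ± 0.16, adjusted p = 0.0479), a call that was lost in 25 of 36 refits leaving out 1 library. The highest mean moved from ZT6 to ZT10 and the daily range from 11.0-fold to 3.92-fold.

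EXPA15 (AT2G03090) was called higher in the mutant at ZT6 and ZT10 and lower from ZT14 to ZT22. Its 3 WT libraries at ZT6 gave 45.7, 39.6 and 37.5 CPM and the mutant 62.5, 56.6 and 57.96 CPM. At ZT18 the values were 56.4, 62.9 and 52.8 CPM in WT and 38.1, 31.0 and 38.2 CPM in the mutant, apart in the other direction. Log2 fold changes were 0.53 ± 0.10 at ZT6 (edgeR adjusted p = 0.000102), -0.45 ± 0.09 at ZT14 (0.000605), -0.69 ± 0.10 at ZT18 (1.35e-06) and -0.61 ± 0.11 at ZT22 (4.65e-05). A call at ZT10 (0.29 ± 0.10) was lost without WT ZT10 replicate A or B or link1link2 ZT10 replicate B, and without the 4 libraries rich in chloroplast counts (0.25), and its highest mean moved from ZT14 to ZT10.

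EXPA1, EXPA4, EXPA6 and EXPA10 were also lower at ZT22, with log2 fold changes of -0.62, -0.39, -0.40 and -0.50. For EXPA1 the sign changed 2 times over the day: the mutant was lower at ZT6 (-0.33, lost in 3 of 36 refits, without WT ZT6 replicate B or C or link1link2 ZT6 replicate A), higher at ZT10 (0.68), ZT14 (0.52) and ZT18 (0.47), and lower at ZT22. Its highest mean lay at ZT2 in WT and at ZT14 in the mutant. EXPA10 (AT1G26770), an expansin of leaf growth, was called higher at ZT2 and lower at ZT14, ZT18 and ZT22. Its value at ZT2 (0.54) was 0.33 without link1link2 ZT2 replicate C and 0.35 without the 4 libraries rich in chloroplast counts, neither of them called. The call at ZT14 (-0.42) was lost without WT ZT14 replicate A or C or link1link2 ZT14 replicate B or C. That at ZT18 (-0.53) was lost without WT ZT18 replicate C or link1link2 ZT18 replicate B. At ZT22 the value was -0.44 without the 4 libraries rich in chloroplast counts, which left only link1link2 replicate B in the mutant group.

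Other expansins were higher in the mutant. EXPA3 (AT2G37640) at ZT2 read 86.1, 84.7 and 92.2 CPM in WT and 150.0, 141.9 and 130.5 CPM in the mutant, without overlap, a log2 fold change of 0.69 ± 0.08 (edgeR adjusted p = 1.43e-08). It was also higher at ZT22 (0.56 ± 0.08, 8.21e-07), and calls at ZT6 (0.30) and ZT18 (0.27) were lost without link1link2 ZT6 replicate C, and without WT or link1link2 ZT18 replicate A. EXPA11 (AT1G20190) at ZT18 held 10.6, 12.2 and 11.1 CPM in WT and 20.6, 23.02 and 20.6 CPM in the mutant. The groups were apart there and overlapped at ZT2, ZT6, ZT10 and ZT14, and the log2 fold change was 0.92 ± 0.15 at ZT18 (1.17e-05) and 0.55 ± 0.13 at ZT22 (0.00128). Without the 4 libraries rich in chloroplast counts the ZT22 value of EXPA11 was 0.41, with link1link2 replicate B alone in the mutant group. EXPA16 (AT3G55500), whose protein shares 83.8% of residues with EXPA4, held 9.79, 12.7 and 10.11 CPM in WT at ZT22 and 23.03, 20.3 and 22.4 CPM in the mutant. That was the only time at which EXPA16 was called (1.02 ± 0.22, adjusted p = 0.000549), and its highest mean moved from ZT2 to ZT22.

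EXPA7 (AT1G12560) and EXPA18 (AT1G62980), known as expansins of root hair cells, were low. EXPA18 held 1.11, 3.23 and 3.64 CPM at ZT22 in WT and 1.16, 0.479 and 0.839 CPM in the mutant. The lowest WT library lay within the mutant range, and the log2 fold change was -1.68 ± 0.37 (edgeR adjusted p = 0.000412). EXPA7 was called at no single time. The mean of its 6 log2 ratios was called lower in the mutant, a call lost in 18 of 36 refits leaving out 1 library. Reads of EXPA7 may be mixed with those of AT1G12570, which overlaps it by 23 bases on the other strand. AT1G12570 held 1475 counts in long days against 1268 for EXPA7. Root hair markers moved in the same direction as EXPA18 at ZT22, where their sum was 7.23 to 13.9 CPM in WT and 4.66 to 5.56 CPM in the mutant. None of the 5 was at 0 in all libraries there and 2 of the 4 tested fell. At ZT18 the sum was also lower (14.9 to 19.5 against 10.4 to 12.0 CPM), with 0 called. At ZT10 it was higher in the mutant (14.4 to 20.9 against 21.1 to 31.1 CPM), with 1 of the 4 called higher, and at ZT2, ZT6 and ZT14 the groups overlapped. The part of root hair cell number in the fall of EXPA18 was not tested. The 7 root markers summed to 209.4 to 250.0 CPM in WT and 226.5 to 247.4 CPM in the mutant at ZT22.

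Among XTH genes highest in the dark, XTH4 (AT2G06850), an enzyme with a known part in wall formation of stems and growing organs, was higher in the mutant at all 6 times. Its WT libraries at ZT18 held 565.5, 537.8 and 522.2 CPM and its mutant libraries 746.9, 778.8 and 671.2 CPM. At ZT6 the values were 139.3, 156.7 and 154.9 CPM against 201.2, 244.4 and 223.4 CPM, again without overlap. Log2 fold changes ran from 0.33 ± 0.11 at ZT10 (edgeR adjusted p = 0.0356) to 0.63 ± 0.11 at ZT2 (0.000191), and no dependence on the time of day was called (0.5). The call at ZT10 was lost without WT ZT10 replicate A or C or link1link2 ZT10 replicate B or C. The mean of its 6 log2 ratios was 0.48 ± 0.05 (1.94e-09).

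XTH22 (AT5G57560, also named TCH4), XTH23 (AT4G25810) and XTH24 (AT4G30270, also named MERI5B) are related XTHs, and the first of them is known for its induction by touch. XTH22 at ZT18 gave 61.5, 64.8 and 46.1 CPM in WT and 100.9, 87.1 and 95.9 CPM in the mutant. At ZT22 it gave 30.3, 20.8 and 29.5 CPM against 38.3, 62.7 and 35.5 CPM, with the mutant above WT in all libraries at both times. The log2 fold changes were 0.72 ± 0.17 at ZT18 (edgeR adjusted p = 0.00323) and 0.75 ± 0.19 at ZT22 (0.00351), and the second was 0.44 and not called without link1link2 ZT22 replicate B.

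XTH24 at ZT14 stood at 12.8, 26.5 and 19.2 CPM in WT and 62.9, 57.1 and 34.7 CPM in the mutant, and at ZT22 at 135.7, 70.7 and 125.1 CPM against 211.6, 244.5 and 206.2 CPM. Mutant libraries were above all WT libraries at both times, with log2 fold changes of 1.40 ± 0.35 (edgeR adjusted p = 0.00677) and 0.99 ± 0.28 (0.0072). Leaving out WT ZT14 replicate A gave 1.16 and leaving out WT ZT22 replicate B gave 0.76, neither of them called. XTH23 at ZT14 had 1.34, 2.60 and 2.90 CPM in WT and 10.0, 3.91 and 4.37 CPM in the mutant. Replicate A of the mutant stood apart at this time, and the log2 fold change of XTH23 of 1.37 ± 0.46 (0.0437) was 0.86 without it and was lost in 15 of 36 refits leaving out 1 library. At ZT18 XTH23 held 15.0, 8.50 and 7.46 CPM against 17.7, 18.2 and 21.7 CPM (0.90 ± 0.29, 0.0272), a call lost in 4 refits, those without WT ZT18 replicate B or C or link1link2 ZT18 replicate B or C. The mean of the 6 log2 ratios was called for XTH22 (0.35), XTH23 (0.80) and XTH24 (0.74), and a dependence on the time was called for none of the 3 (0.0733, 0.575 and 0.195). Without link1link2 ZT6 replicate B the mean for XTH22 was 0.29 and not called.

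**Figure D3:**
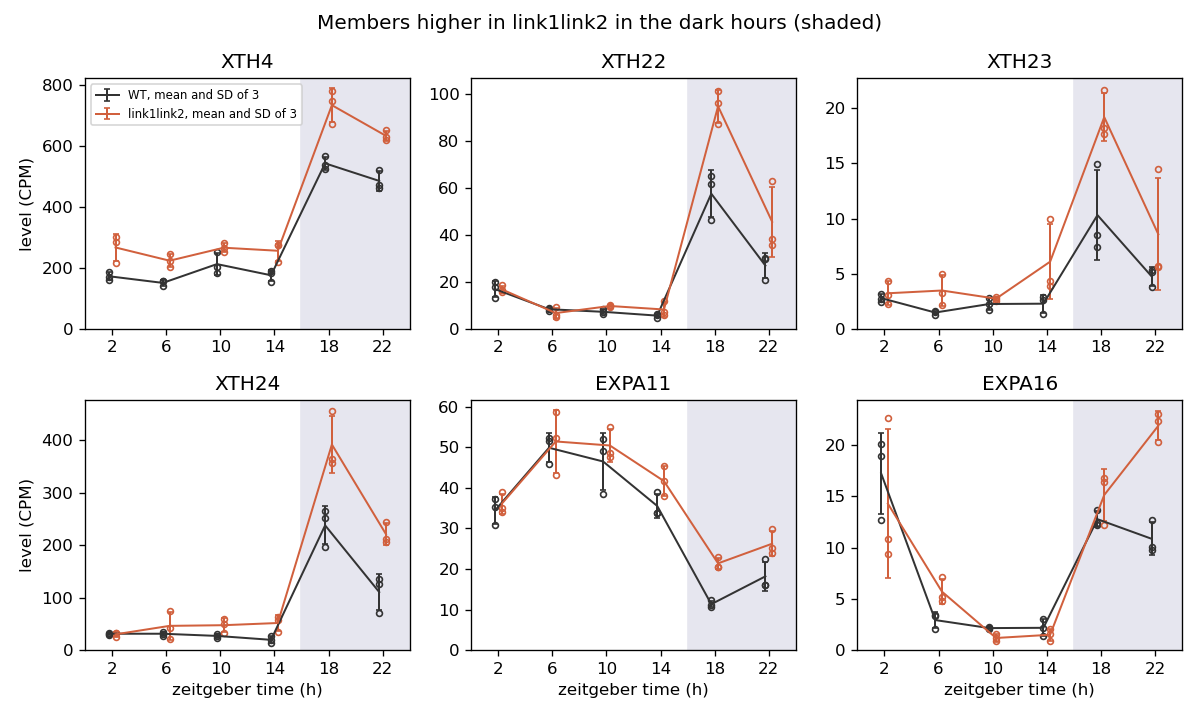
Level in CPM (vertical axes, from 0) against zeitgeber time in h for 6 members that were called higher in link1link2 (orange) than in WT (black) at ZT18, ZT22 or both, with circles for libraries, lines and bars for the mean and SD of 3, and dark hours shaded. XTH4 is above WT at all 6 times, whereas EXPA11 parts from WT at ZT18 and ZT22 and EXPA16 at ZT22.

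XTH20 (AT5G48070) was called lower in the mutant at 1 time, ZT18, where it stood at 7.13, 8.50 and 9.88 CPM in WT and 4.76, 3.12 and 4.32 CPM in the mutant. The groups did not overlap, and the log2 fold change was -1.08 ± 0.23 (edgeR adjusted p = 0.000499). XTH9 (AT4G03210), known from stem tissues, was also called lower at 1 time, ZT10 (-0.38 ± 0.12, 0.0254), and that call was lost in 5 of 36 refits, those without WT ZT10 replicate A, B or C or link1link2 ZT10 replicate B or C. Among the remaining night-high XTH genes XTH27 rose at ZT10 (0.39) and ZT14 (0.74), XTH30 at ZT18 (0.62) and ZT22 (0.40) and XTH8 at ZT6 (0.48), ZT14 (0.51) and ZT22 (0.47). The ZT22 call of XTH30 and all 3 of XTH8 were not held under 1 or more of the refits without a library or without the 4 libraries rich in chloroplast counts. The latter refit kept only link1link2 replicate B in the mutant group at ZT22.

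No genotype difference was called at any of the 6 times for EXPA7, EXPA9, EXPA14, XTH5, XTH15, XTH16, XTH18, XTH19, XTH21 and XTH28. For EXPA9 the mean of the 6 log2 ratios was called higher in the mutant, a call lost in 7 of 36 refits leaving out 1 library. XTH17 was called higher at ZT2 (0.75) and ZT22 (0.68), but its reads cannot be told apart with certainty from those of XTH18, with 86.5% protein and 85.6% coding identity. XTH18 and XTH19 are tandem copies with 90.4% and 87.6%. XTH18 and XTH20 also share 85.6% of coding bases, and how reads were divided between such genes was not checked. The groups of XTH17 overlapped at ZT2, and both calls were lost in 4 of 36 refits, those without WT or link1link2 replicate A or B at ZT2 and those without WT replicate A or C or link1link2 replicate A or B at ZT22. XTH15 shares 382 bases with a locus on the other strand, AT4G14120, which held 943 counts against 5580. XTH25 was low at all times. At ZT2 it had 12 counts over the 3 WT libraries and 0 over the mutant libraries, which makes it at least 4.16-fold lower in the mutant, and at ZT14 it had 0 against 18, at least 6.19-fold higher, with a floor of 3 counts over the group. The call at ZT2 was lost without WT ZT2 replicate C, without link1link2 ZT2 replicate A or C, and without the 4 libraries rich in chloroplast counts.

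XTH33 had more counts in the dark. At ZT22 its WT libraries held 16, 15 and 9 counts and its mutant libraries 43, 39 and 46, without overlap, and the log2 fold change was 1.78 ± 0.35 (edgeR adjusted p = 9.76e-05). At ZT18 XTH33 held 16, 24 and 9 counts against 35, 36 and 18, with overlapping groups (1.00 ± 0.36, 0.0387), and that call was lost in 4 of 36 refits, those without WT ZT18 replicate A or C or link1link2 ZT18 replicate A or B, and with DESeq2. XTH33 at ZT14 had 3 counts in WT and 17 in the mutant, a ratio of 5.85 with a 95% interval of 1.69 to 31.2 that covers counting error only, and its call there was lost in 16 of 36 refits and with DESeq2.

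In continuous light the members called were 4 XTH genes that rose in the mutant and 2 expansins and XTH31 that fell. These 7 of 36 tested members stand against 5.15% of all tested genes (2.18% higher, 2.98% lower), and the median log2 fold change was 0.02 over the members and 0.0007 over all tested genes. XTH31 gave 94.2, 103.9 and 100.3 CPM in WT and 62.5, 61.03 and 63.4 CPM in the mutant, without overlap, and its log2 fold change was -0.68 ± 0.06 (edgeR adjusted p = 1.41e-07). XTH6 gave 57.6, 63.6 and 60.4 CPM in WT and 95.8, 94.0 and 84.9 CPM in the mutant. All 3 mutant libraries of XTH6 were higher, by 0.60 ± 0.06 on the log2 scale (2.03e-06).

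XTH16 (AT3G23730), a member known to respond to shade, held 22.8, 29.0 and 28.7 CPM in WT and 38.7, 39.04 and 38.4 CPM in the mutant. The groups were apart and the log2 fold change was 0.53 ± 0.08 (edgeR adjusted p = 0.000238). EXPA4 (AT2G39700) held 155.6, 142.8 and 158.7 CPM in WT and 121.0, 118.9 and 130.3 CPM in the mutant. Mutant libraries were all below WT, with a log2 fold change of -0.30 ± 0.06 (0.00277).

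The 3 other calls in continuous light did not hold without certain single libraries. XTH4 read 143.5, 155.3 and 151.2 CPM in WT and 206.4, 165.7 and 189.7 CPM in the mutant, without overlap (0.32 ± 0.07, edgeR adjusted p = 0.00785). Without WT replicate A the value was 0.29 and not called. EXPA6 (AT2G28950) read 126.2, 132.0 and 133.0 CPM against 120.9, 104.5 and 111.9 CPM, all mutant libraries lower (-0.21 ± 0.06, 0.0417), and the call was lost without any of WT replicates A, B and C and link1link2 replicates B and C. XTH9 read 116.3, 126.5 and 123.0 CPM against 141.1, 150.5 and 132.2 CPM, all mutant libraries higher (0.21 ± 0.06, 0.0417), and its call was lost without any of WT replicates A, B and C and link1link2 replicates A and B. Neither EXPA6 nor XTH9 was called by DESeq2.

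**Figure D4:**
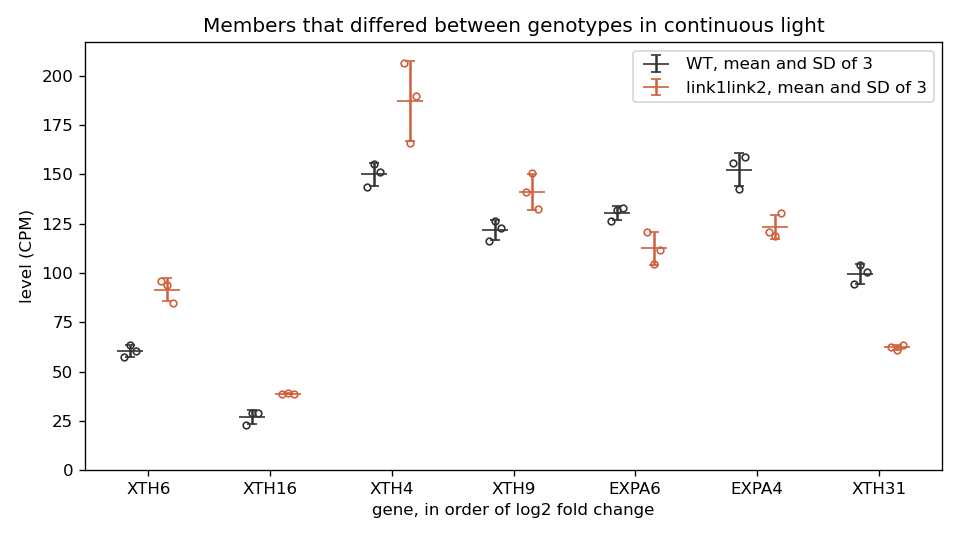
Level in CPM (vertical axis, from 0) of the 7 members called in continuous light, in the order of their log2 fold change from XTH6 (0.60) to XTH31 (-0.68), with circles for libraries and bars for the mean and SD of 3. WT is in black and link1link2 in orange. The groups do not overlap for any of the 7, which were picked because they were called, and the share of all tested genes without overlap was not counted.

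For 4 of these 7 the mean over the long day was also called, in the same direction. The mean log2 ratio was called for XTH6 (0.57 ± 0.04, edgeR adjusted p = 1.87e-12), XTH4 (0.48 ± 0.05, 1.94e-09), EXPA6 (-0.21 ± 0.03, 1.45e-06) and XTH31 (-0.74 ± 0.06, 2.35e-10). For EXPA4 (-0.07 ± 0.04, 0.133), XTH9 (-0.09 ± 0.05, 0.212) and XTH16 (0.01 ± 0.06, 0.933) it was not called. XTH7, XTH32, EXPA5 and EXPA8, which changed strongly at single times of the long day, were not called in continuous light (log2 fold changes of -0.10, -0.27, 0.004 and -0.10). The difference between the light conditions was not tested, since the count tables were fitted separately.

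Related wall genes were counted in the same fits, to be read against the 30.6% of all tested genes called at ZT22 (16.6% higher, 14.1% lower) and the 41.9% with a difference that depended on the time. Of 18 other expansins and expansin-like genes 8 passed the filter, and at ZT22 4 rose and 2 fell. The beta-expansin EXPB3 fell at ZT22 (-1.84) and rose at ZT6 (0.63) and ZT10 (0.83), the expansin-like EXLB1 rose at ZT6 (2.10) and ZT10 (1.31), and EXLA1 fell at ZT10 (-0.63) and rose at ZT22 (0.63). The beta-expansin EXPB1 rose at ZT10 (0.76). Of 10 other XTH genes 4 passed, and at ZT22 only XTH14, known from roots, was called (-1.14, lower), as it was at ZT18 (-1.06), while XTH12 was called at ZT10 (1.57). Of 10 xyloglucan synthesis genes 1 was called at ZT22, higher, and 3 had a difference that depended on the time: the glucan synthase CSLC5 (0.30 at ZT6, -0.25 at ZT14), the xylosyltransferase XXT1 (0.49 at ZT18) and the galactosyltransferase MUR3 (0.27 at ZT6). Of the 3 plasma-membrane proton pumps, which acidify the wall, AHA1 was called at ZT2 (0.22) and ZT14 (-0.35) and AHA2 and AHA3 at no single time. A difference that depended on the time was called for 2 of the 3 pumps. It was also called for 5 of the 8 other expansins and expansin-like genes tested and 2 of the 4 other XTH genes tested.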

How the data were processed

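Messenger RNA was selected as poly(A) RNA and sequenced from TruSeq RNA libraries, per the labels' protocols, which do not state that strand was kept. The authors deposited raw read counts per locus, without normalization, in 1 table for each experiment. The genome build was TAIR10, per the submitters' processing notes. The aligner, the counter and its handling of multi-mapping reads are not given in the sources used here. Libraries are named by the letter in their column, which no label ties to a replicate number. Every pair of replicates differed by more than sampling noise, with a chi-square of 1.91 to 22.83 per degree of freedom, so each counts as 1 sample.

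Each table was fitted over all genes with edgeR 4.0.16 (R 4.3.3): filterByExpr (20158 genes kept in continuous light, 20518 in long days), TMM scaling, robust quasi-likelihood test and Benjamini-Hochberg adjustment, with a gene called at an adjusted p under 0.05. Long days used 1 model of 12 groups with 24 residual degrees of freedom. CPM is counts scaled to the TMM library size, with the SD of 3 libraries, and log2 fold changes carry the SE implied by the test. Fits were tested on simulated data. The alternatives were DESeq2 1.42.0, relative log expression scaling, no filter, each library left out, a replicate block by column letter, each time alone, a chloroplast-share covariate and no library over 2% chloroplast counts.

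Values by library are given for members called in continuous light and, in long days, for the 6 EXPA and 8 XTH members with the largest called log2 fold change among those with at least 5 CPM in the higher group; of related gene lists up to 4 genes with the smallest p for time dependence are named. The members and lists were chosen with earlier results of these data known. Of the loci, 32835 (97.7%) matched TAIR10.1 (RefSeq), which gave promoters and, by translation, protein identity (Biopython 1.88); pairs of 85% or more are named as uncertain.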

Additional observations from a re-analysis of the deposited data

Results flagged for a closer look

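For 20 members the difference between link1link2 and WT was not the same at the 6 times of the long day, by the edgeR test of the difference itself over the 6 times, adjusted over all tested genes (41.9% of which were called). Among the XTH genes the adjusted p was 4.21e-22 for XTH7, 4.43e-17 for XTH32, 4.13e-15 for XTH6, 5.7e-08 for XTH31, 1.19e-05 for XTH27, 0.000625 for XTH25, 0.00306 for XTH30, 0.0137 for XTH20 and 0.0379 for XTH16. XTH25 rests on few counts, and the value of XTH16 was not called in 16 of 36 refits leaving out 1 library and that of XTH20 was not called without link1link2 ZT18 replicate B.

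Among the expansins it was 2.55e-10 for EXPA15, 8.39e-09 for EXPA1, 5.32e-07 for EXPA8, 9.94e-07 for EXPA5, 8.98e-06 for EXPA6, 2.48e-05 for EXPA3, 4.79e-05 for EXPA10, 0.000365 for EXPA4, 0.000989 for EXPA18, 0.001 for EXPA11 and 0.00285 for EXPA16. EXPA18 is low, and its WT and mutant libraries overlapped at ZT22, the only time at which it was called.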

How the results depend on the processing

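With column letter as a replicate block, 12 members were called in continuous light in place of 7, 7 of them higher and 5 lower in the mutant. The share of all tested genes called was not counted in this or the other alternative fits, so such changes are not read as particular to the members. Libraries that share a letter correlated by more than 0.1 in their deviations from the group means in 4 of 21 pairs (r from -0.443 to 0.264), so the letters were not taken to pair the samples. In continuous light alone r was 0.0989, 0.0928 and 0.211 for letters A, B and C, all positive, so pairing by letter is not settled there. Counts of called members moved by at most 1.5 times under every other alternative listed, except at ZT10 (11 called), where leaving out 1 library gave 7 to 12. No called log2 fold change of a named member changed sign. Leaving out 1 library aside, the calls of members that did not hold were these. With DESeq2 they were EXPA6 and XTH9 in continuous light, EXPA13 at ZT6 and XTH33 at ZT14 and ZT18. With no filter or with the replicate block they were EXPA13 at ZT6 and EXPA8 and XTH23 at ZT14, and with the chloroplast covariate XTH23 at ZT14 and XTH33 at ZT18. With 1 time fitted alone they were EXPA10 and XTH17 at ZT2, EXPA13 at ZT6, XTH4 at ZT10, EXPA8, XTH23 and XTH24 at ZT14, EXPA1 and XTH23 at ZT18 and XTH22 and XTH24 at ZT22, while XTH25, and XTH33 at ZT14, did not pass the filter in such fits. Without the 4 libraries over 2% chloroplast counts they were EXPA5, EXPA10 and XTH25 at ZT2, EXPA13 at ZT6, EXPA4, EXPA15 and XTH9 at ZT10 and EXPA8 at ZT14. At ZT22, where that refit kept only link1link2 replicate B in the mutant group, they were EXPA5, EXPA10, EXPA11, XTH8, XTH17 and XTH30. This list covers the comparisons at single times and in continuous light. The cause was not tested. Genes with few counts (EXPA2, XTH25, XTH33) are limited by depth.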

Other observations

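Genes of cellulose synthesis in the primary wall were counted in the same seedlings. Of the 8 genes listed, all tested, 6 rose and 1 fell at ZT18 in the mutant and 5 rose and 1 fell at ZT22, where the shares of all tested genes were 10.6% higher and 9.59% lower at ZT18 and 16.6% and 14.1% at ZT22. The rises were small: the cellulose synthase subunit gene CESA3 stood 0.45 higher on the log2 scale at ZT18 and 0.24 at ZT22, CESA6 0.39 and 0.24, and KOR1, an endoglucanase needed for cellulose synthesis, 0.46 and 0.37. CESA5 went the other way, with log2 fold changes of 0.62 at ZT6, 0.44 at ZT10, -0.49 at ZT14, -0.32 at ZT18 and -0.48 at ZT22, all called by edgeR, and it was also lower in continuous light (-0.27).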
